A study of Arabidopsis thaliana with 4 samples.

Results

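Histone H2B is 1 of the proteins around which nuclear DNA is wrapped, and Arabidopsis thaliana makes it from a family of genes. The 4 members described here are HTB1 (AT1G07790), HTB2 (AT5G22880), HTB4 (AT5G59910) and HTB11 (AT3G46030). They were found by locus in the array annotation, and each was read from its brightest probe set assigned to that gene alone. A probe set is the group of short probes on the array that reports 1 transcript, and each member had 1 such probe set, out of the 13356 genes with a probe set of their own. All 4 passed the filter on low signals and were among the 13604 probe sets tested. A gene table places HTB1 on chromosome 1, HTB11 on chromosome 3, and HTB2 and HTB4 on chromosome 5.

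H2B pairs with H2A, and these pairs join H3 and H4 in the nucleosome. Most core histone messages are made while DNA is copied, so in plants they are abundant in meristems and young growing organs and scarce in tissue that has stopped dividing. Some histones, such as the H3.3 form of H3, are made throughout the cell cycle and also in cells that no longer divide. For this reason H2B signal is often read as a sign of cell proliferation.

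The study compared whole ppi2 mutant plants grown for 20 days, on 2 arrays, with whole wild-type plants grown for 10 days, also on 2 arrays. The ppi2 mutant lacks TOC159, a receptor through which proteins enter the chloroplast. All plants grew on MS agar plates in long days with no further treatment, and total RNA was measured on single-colour Affymetrix arrays. Genotype and age changed together and cannot be told apart. Arrays of a group are labelled as biological replicates, with no word on separate cultures, so p-values cover only the spread between these arrays. In whole plants, fewer dividing cells and less histone RNA per cell cannot be told apart.

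The arrays did not group by their labels. Across the tested probe sets, ppi2 replicate 1 was closest to wild type replicate 2 (r = 0.981) and ppi2 replicate 2 to wild type replicate 1 (r = 0.953). The other 4 pairs of arrays, with both pairs of labelled replicates among them, gave r between 0.798 and 0.823 across probe sets, which are not independent replicates. No probe set was assigned to TOC159, so its signal could not check the labels. An exchange of labels within 1 replicate number and a difference between cultures cannot be told apart here. With the labels of 1 number exchanged, every difference within that number would change its sign, and the differences between the labelled groups would change with it. Arrays are therefore named by their labels, values are given for every array, and differences are also given within each replicate number. Median signals lay between 193 and 213. With so few arrays the precision of each value is limited.

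HTB11 was bright on 1 array of each group and dim on the other. Its signals, in the linear units of the deposited table, were 46.2 and 685 in ppi2 (replicates 1 and 2, the order used for every pair of signals below), compared with 713 and 65.2 in wild type. The highest deposited signal was 15.4 times the lowest. Both dim values lay under 124, the mean signal used as the filter, and without detection calls they cannot be told from background. Ratios and log2 differences against them are therefore of uncertain size. With the dim signals set to 124, the bright ones were at least 5.75 times higher in number 1 and at least 5.52 times higher in number 2. The log2 range of HTB11 over the 4 arrays, 3.73 as measured, has the same limit and was not ranked among the other probe sets, whose median range was 0.72.

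HTB2 was bright and dim on the same arrays. It read 190 and 834 in ppi2 and 592 and 186 in wild type. The highest signal was 4.48 times the lowest, and 5.48% of the tested probe sets had a larger log2 range. Neither of its low signals fell under the filter level. The groups overlapped, with the higher wild type value between both ppi2 values.

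HTB4 was also brighter on these arrays, but by little. Its signals were 1399 and 2103 in ppi2 and 1935 and 1417 in wild type. The highest was 1.5 times the lowest, and 62.3% of the tested probe sets had a larger log2 range than its 0.58.

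HTB1 did not share this pattern. It read 965 and 698 in ppi2 and 844 and 1037 in wild type. Its brightest array was wild type replicate 2, on which HTB2 was at its lowest, and its dimmest was ppi2 replicate 2, on which HTB2 and HTB4 were at their highest. The highest signal was 1.49 times the lowest, and 64.2% of the tested probe sets had a larger log2 range.

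**Figure D1:**
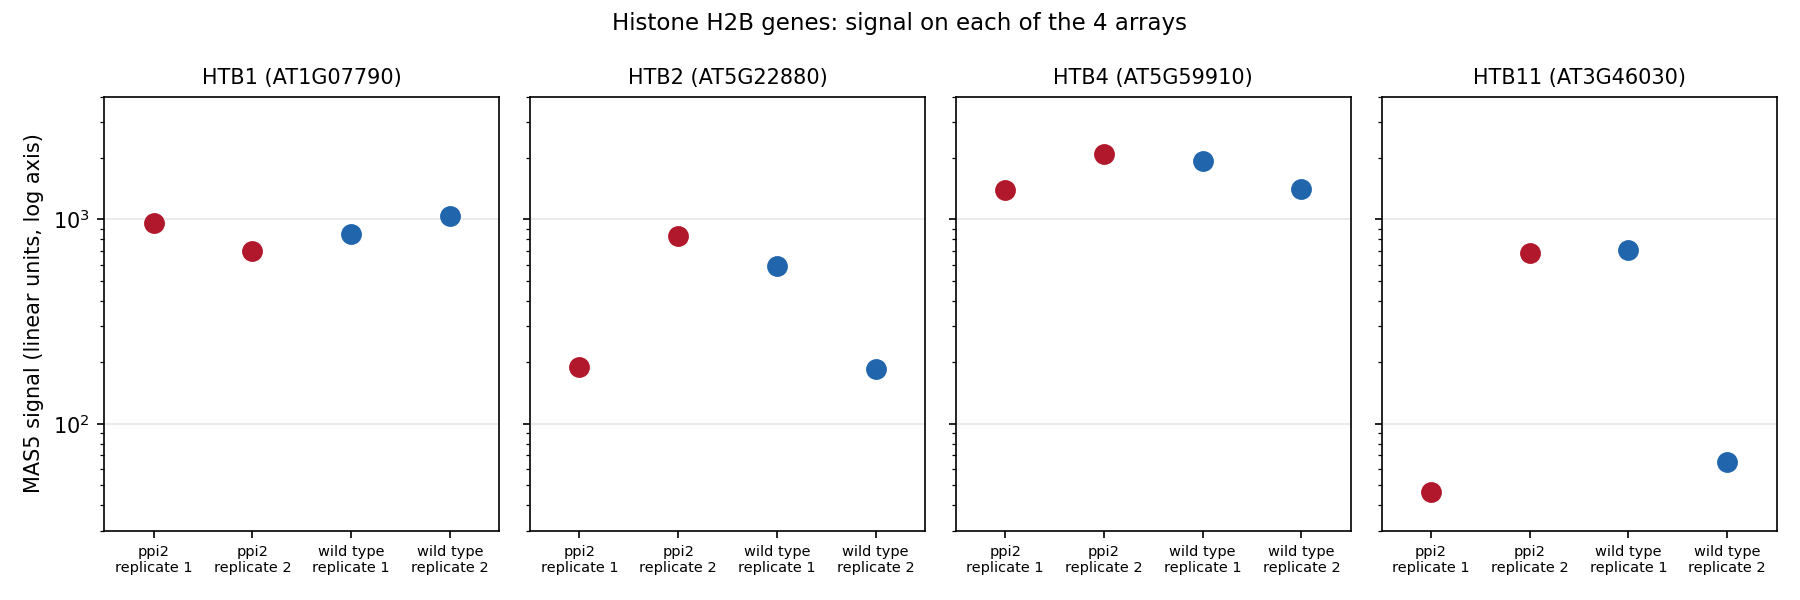
Deposited signal (vertical axis, linear units on a log axis) of each H2B gene on each array (horizontal axis), with ppi2 arrays in red, wild type arrays in blue and 1 point per array. HTB11 falls from 685 and 713 to 46.2 and 65.2 and HTB2 from 834 and 592 to 190 and 186, while HTB1 and HTB4 vary by about 1.5 times over the arrays.

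No H2B gene was found to differ between the labelled groups. In the limma fit across all tested probe sets, on log2(signal + 7.99), 0 of the 4 members passed an adjusted p of 0.05, where 0% of the tested probe sets did so (0 of 13604). At an unadjusted p under 0.05 there were also 0 members and 0.0588% of the probe sets (8). The ranges of the labelled groups overlapped for all 4 members, while 14.3% of the tested probe sets had groups that did not overlap. The median log2 difference of the members, ppi2 minus wild type, was -0.07, and that of all tested probe sets -0.01.

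The labelled differences of the members were small against their errors. HTB1 averaged 832 ± 189 in ppi2 and 941 ± 136 in wild type (SD, n = 2 arrays each). Its log2 difference was -0.19 ± 0.32 (SE), with a 95% interval of -1.02 to 0.65 (limma adjusted p = 1). HTB4 averaged 1751 ± 497 and 1676 ± 366, a log2 difference of 0.05 ± 0.36 with an interval of -0.90 to 1.002 (limma adjusted p = 1). For these 2 genes the interval reaches a 2-fold change at only 1 end.

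For the other 2 genes the arrays of a group were so far apart that the comparison was nearly empty. HTB2 averaged 512 ± 456 in ppi2 and 389 ± 287 in wild type (SD, n = 2 arrays each), a log2 difference of 0.26 ± 0.91 with an interval of -2.15 to 2.66 (limma adjusted p = 1). HTB11 averaged 366 ± 452 and 389 ± 458, a log2 difference of -0.24 ± 1.66 with an interval of -4.63 to 4.14 (limma adjusted p = 1). An exact permutation test of 2 arrays against 2 cannot go below 0.333 (two-sided). These values do not show that the H2B genes were alike in ppi2 and wild type.

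The sign of the labelled difference depended on single arrays. HTB11 was at 1.59 without ppi2 replicate 1 and 1.41 without wild type replicate 1, but at -2.08 without ppi2 replicate 2 and -1.89 without wild type replicate 2. HTB2 was at 1.303 and 1.07 without the same first arrays and at -0.79 and -0.56 without the second ones. HTB4 ranged from -0.24 to 0.34 and HTB1 from -0.42 to 0.05 on the log2 scale as each array was left out in turn. No member passed in any of these fits (limma adjusted p = 1), which take a lone array to vary as the other pair does.

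Within each replicate number, HTB2, HTB4 and HTB11 pointed opposite ways, lower in ppi2 in number 1 and higher in ppi2 in number 2. Each of these differences sets 1 array against 1, so it has no error and no test. HTB11 had log2 differences of -3.73 in number 1 and 3.24 in number 2 as measured, each against a dim signal not shown to be above background, for which the bounds above are the safer sizes. HTB2 had -1.60 and 2.12, with signal ratios of 3.12 and 4.48 in the same directions. HTB4 had -0.47 and 0.57. HTB1 ran the other way, at 0.19 and -0.57. The median of the members was -1.03 in number 1 and 1.34 in number 2, beside 0.02 and -0.05 for all tested probe sets.

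Of the 4 members, 3 were lower then higher, as were 36.8% of all tested probe sets, and 1 was higher then lower, as were 41.1%. HTB2 and HTB11 differed at least 2-fold in both numbers. A 2-fold lower signal in number 1 was seen for 2 of 4 members and 10.9% of the probe sets, and a 2-fold higher signal in number 2 for 2 of 4 members and 9.59% of the probe sets. Both together held for 2 of 4 members and 7.14% of the probe sets. With 4 genes these shares are a description only.

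**Figure D2:**
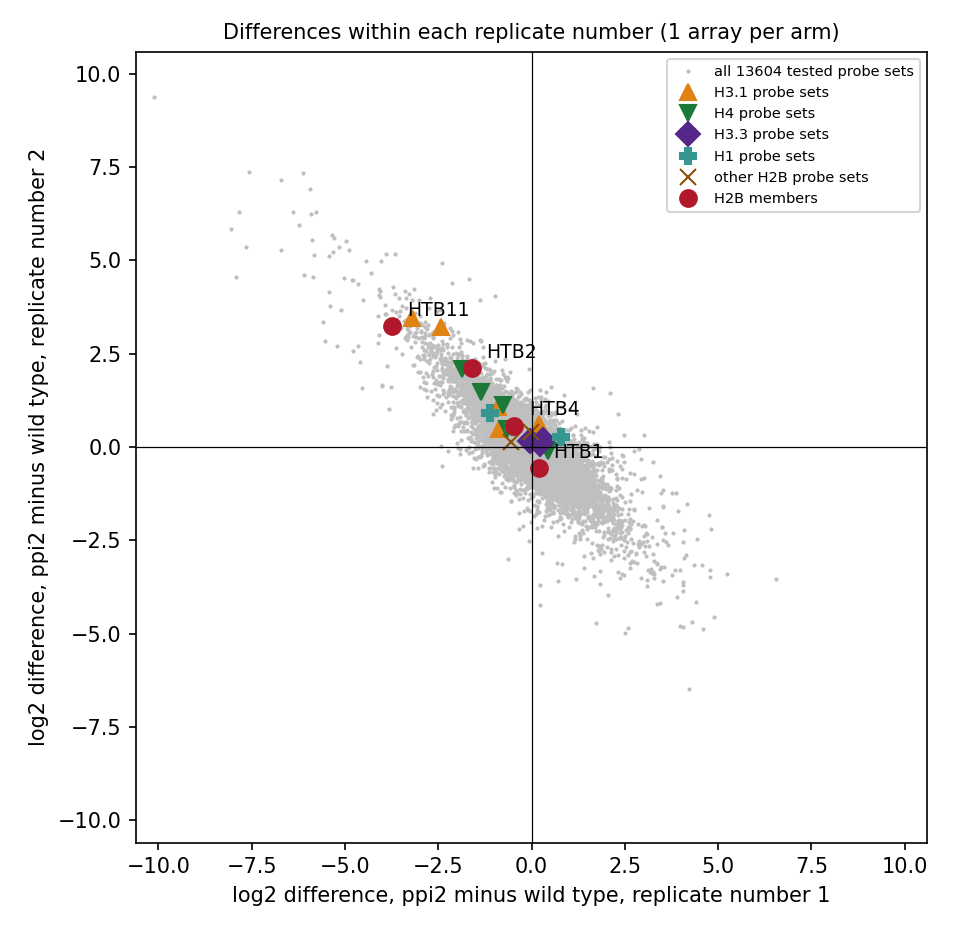
Log2 difference in signal, ppi2 minus wild type, within replicate number 1 (horizontal axis) and number 2 (vertical axis), each from 1 array per arm. Grey points are the 13604 tested probe sets and coloured symbols are histone probe sets by class. HTB11 (-3.73, 3.24) and HTB2 (-1.60, 2.12) lie in the upper left, HTB11 by differences taken against dim signals,, HTB4 (-0.47, 0.57) near the centre and HTB1 (0.19, -0.57) on the opposite side.

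The members thus differed from each other in how much they moved. The root mean square distance between centred log2 signals over the 4 arrays, which is 0 for profiles that run in parallel, was 0.47 for HTB1 and HTB4 and 0.68 for HTB2 and HTB4. It was 0.85 for HTB2 and HTB11 and reached 1.94 for HTB1 and HTB11. HTB2 lay closest to the mean profile of the members (0.29) and HTB11 farthest from it (1.06). Distances of HTB11, and the mean profile of the members, rest in part on the dim signals of HTB11. That mean profile was -0.75 and 0.72 on ppi2 replicates 1 and 2, and 0.65 and -0.62 on wild type replicates 1 and 2 (log2, centred).

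Other loci of the histone lists were read beside the members. Of 7 further loci that were listed as H2B genes from general knowledge, and whose role the annotation tables do not give except for HTB9, 5 had a probe set and 2 passed the filter. AT2G37470 read 384 and 478 in ppi2 and 566 and 430 in wild type. AT2G28720 read 246 and 442 against 249 and 333. Both varied less over the arrays than HTB2 and HTB11, with log2 ranges of 0.55 and 0.82. The other 3 were too dim to test, with signals between 3.73 and 162, and 1 of them (AT5G02570) overlaps HTA12, a gene for H2A, so its signal cannot be assigned with certainty. HTB9 itself had no assigned probe set.

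Histone H3 was read by shared probe sets for its forms H3.1 and H3.3. HTR12, the centromeric form of H3, had a probe set of its own that was too dim to test. It read 70.2 and 140 in ppi2 and 52.5 and 60.8 in wild type, higher on the ppi2 array in both numbers. The annotation assigned 5 probe sets jointly to the same 5 loci, which the gene table lists as H3.1, the form laid down during DNA replication, and no single gene can be named from them. Their median log2 differences were -0.90 in number 1 and 1.08 in number 2. Of the 5, 4 were lower then higher, as were 36.8% of all tested probe sets. The probe set with the widest swing among them read 83.6 and 799 in ppi2 and 836 and 65.5 in wild type, the same bright and dim arrays as HTB11. Another read 119 and 598 against 680 and 57.5. One more, at 658 and 733 against 574 and 473, was higher on the ppi2 array in both numbers and had a log2 range of 0.62. The dim values of both former probe sets lay under 124 like those of HTB11.

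The 3 probe sets assigned jointly to 3 loci listed as H3.3 had median differences of 0.23 and 0.15, and their log2 ranges over the arrays were 0.23, 0.31 and 0.69. Of these, 2 were higher on the ppi2 array in both numbers. The brightest read 9930 and 12281 in ppi2 and 10128 and 11071 in wild type. The difference between the H3.1 and H3.3 probe sets was not tested.

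Histone H4 was also read only by shared probe sets, 5 of them assigned to the same 8 loci, among them HIS4. Their medians were -0.75 in number 1 and 1.12 in number 2. Of the 5, 4 were lower then higher, as were 36.8% of all tested probe sets, and 1 ran the other way, as did 41.1%. The probe set that swung most read 68.9 and 486 in ppi2 and 270 and 107 in wild type. The one that ran the other way read 1561 and 1919 against 1155 and 2076. Shared probe sets of 1 class were assigned to the same loci, so none can be given to a single gene. Whether they read the same or different genes of the class was not tested, and their values differed widely.

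Among the linker histones, which bind the DNA between nucleosomes, 3 loci were tested. AT1G06760, listed here as H1 from general knowledge, read 1669 and 3374 in ppi2 and 3587 and 1797 in wild type. AT2G30620, listed on the same basis, read 1892 and 2599 against 2601 and 1801. HIS1-3, the H1 form known for its induction by drought, read 1201 and 1271 against 695 and 1047 and was higher on the ppi2 array in both numbers. None of the 13 listed H2A genes had an assigned probe set, so the partner of H2B in the nucleosome is not analysed here. Of 33 loci for core and linker histones other than H2B, 20 had a probe set. They shared 17 probe sets, of which 16 were tested, and 0 passed between the labelled groups in either direction (limma).

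**Figure D3:**
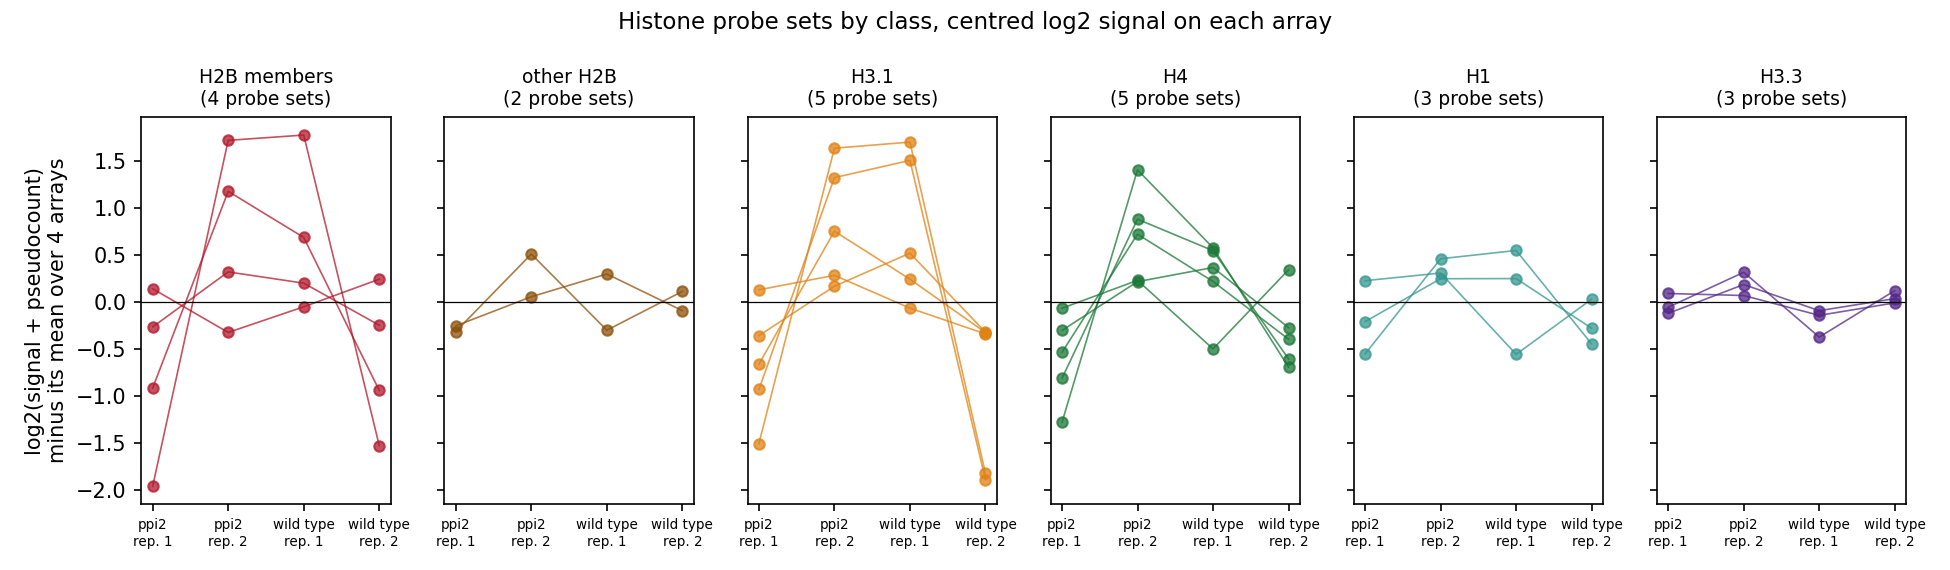
Log2(signal + pseudocount) minus its mean over the 4 arrays (vertical axis) on each array (horizontal axis) for the tested probe sets of each histone class, with 1 line per probe set to join its points. The widest lines span 3.73 among the H2B members, 3.52 in H3.1 and 2.68 in H4, each with a low end under a signal of 124, but each of these classes also holds lines narrower than the widest H3.3 line (0.69), at 0.57, 0.62 and 0.67.

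Few genes of DNA replication and cell division could be read. Of 28 replication loci 2 had a probe set, and both were tested. PRL, the MCM7 subunit of the helicase that opens DNA for copying, read 370 and 514 in ppi2 and 516 and 334 in wild type. ICU2, the catalytic subunit of DNA polymerase alpha, read 149 and 153 against 202 and 126. Of 35 loci for cyclins, their kinases and mitosis, 3 were read, all Aurora kinases, which act during mitosis. AUR1 read 293 and 473 against 521 and 284, AUR2 154 and 265 against 288 and 164, and AUR3 167 and 169 against 218 and 126.

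All 5 of these genes were lower then higher, as were 36.8% of all tested probe sets. Their log2 ranges lay between 0.61 and 0.87, beside a median of 0.72 for all tested probe sets. These ranges were less than for HTB2 and HTB11 and more than for HTB4. Of both lists, 0 members passed between the labelled groups in either direction (limma). The list medians were -0.45 and 0.44 for replication and -0.81 and 0.66 for cell division, in numbers 1 and 2. The listed cyclins and their kinases had no assigned probe set. Whether probe sets left unnamed by the annotation read them, or the other loci without a probe set, was not tested.

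A further 5 genes, outside the planned lists, were added from the annotation's symbols. They were 2 DNA polymerase subunits (POLA3 and POLD3), the plant kinesin KINESIN-12B of the phragmoplast, where the new cell wall forms, and the DNA-binding proteins 3xHMG-box1 and 3xHMG-box2, which sit on mitotic chromosomes. Of these, 4 were lower then higher, as were 36.8% of all tested probe sets, and 1 was lower in both. The medians were -0.82 in number 1 and 0.58 in number 2. As these genes were picked outside the planned lists, their count is a description only. 3xHMG-box2 read 476 and 842 in ppi2 and 1023 and 560 in wild type. KINESIN-12B, the exception, read 98.9 and 109 against 240 and 120. None of the 5 passed between the labelled groups (limma).

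Of 10 cell cycle inhibitors 1 was read. SIM, which turns dividing leaf cells towards endoreduplication, gave 271 and 460 in ppi2 and 341 and 240 in wild type, so it was high and low on the same arrays as HTB2. Of 14 histone chaperones and enzymes of H2B ubiquitination 3 were read, and they had no common order. SGA2, which passes H3 and H4 to new chromatin, gave 319 and 373 against 534 and 267, and its relative ASF1B gave 312 and 221 against 353 and 333. UBP26, which takes ubiquitin off H2B, gave 244 and 194 against 147 and 310. It was brightest on the array where HTB1 was brightest and dimmest on that where HTB11 was brightest. None of these genes passed between the labelled groups (limma).

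By the rule for likeness, the 6 named genes whose centred log2 signals lay nearest to the mean H2B profile over the 4 arrays were all loci without a symbol in the annotation, at distances between 0.04 and 0.06. The nearest, AT3G10860, read 1638 and 4259 in ppi2 and 4135 and 1780 in wild type. The others were AT1G77090, AT1G71480, AT1G32160, AT3G07310 and AT2G43560. All 6 lay nearer to that mean than any of the H2B genes that form it. The mean rests in part on the dim signals of HTB11, and HTB1 ran the other way, so likeness to it is not likeness to each member.

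Taken singly, a choice made after the values were seen, HTB2 had MSRB6, a methionine sulfoxide reductase, as its nearest gene (distance 0.019), at 381 and 1697 against 1199 and 374. HTB11 had AT3G22970 (0.07), at 63.8 and 874 against 933 and 77.7. HTB1 and HTB4 had as their nearest AT3G12050 (0.017) and AT1G68710 (0.013). The only tested gene adjacent to a member on its chromosome, AT5G22875 beside HTB2, read 328 and 446 in ppi2 and 369 and 307 in wild type.

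Some technical and tissue measures are given beside the H2B signals. The median of the 18 hybridisation controls, spiked in before hybridisation, was 840 and 1669 in ppi2 and 1514 and 1106 in wild type, and so was higher on the arrays where HTB2 and HTB11 were bright. The ratio of 3' to 5' signal of GAPDH, a sign of RNA quality, was 1.63 and 1.96 against 2.62 and 1.92, also higher on these arrays, by little in number 2. With quantile normalization the log2 differences in numbers 1 and 2 were -3.50 and 3.13 for HTB11 and -1.57 and 2.12 for HTB2. The leaf marker RCA, rubisco activase, the only one of 4 mesophyll markers with a probe set, read 12920 and 20240 against 16450 and 13710. Of 3 root markers 2 had a probe set, and they ran differently. EXPA18 read 117 and 130 against 178 and 95.4, and EXPA7, too dim to test, 77.0 and 104 against 71.8 and 88.2, lowest on the array where HTB11 was brightest. Their summed signal was 194 and 234 against 250 and 184. Of 8 meristem markers only CLV3, which marks shoot stem cells, had a probe set, at signals between 1.504 and 29.5, too dim to test, and no probe set was assigned to the 3 epidermal or the 3 floral markers. The part of tissue make-up, RNA quality and hybridisation in the H2B signals was not tested.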

How the data were processed

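The deposited table holds MAS5 signal intensities per probe set, on a linear scale. MAS5 is what the submitters' processing notes name for the authors' processing. Its settings and version were not given in the sources used here. The table had 22810 probe sets, and 64 controls were left out. Platform annotation listed 14016, of which 13513 had 1 gene and 503 several; the other 8794 were unnamed here. A RefSeq gene table (assembly TAIR10.1) matched 13436 of the single-gene probe sets and was used for names, chromosomes and neighbours.

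To each signal 7.99 was added (the 10th percentile) before log2, which understates differences of dim probe sets. Each gene was read from its brightest probe set, which removed 157 others. Probe sets with several genes or none were kept in the fit. In all, 13604 probe sets had a mean signal of at least 124, the 40th percentile, and were tested, 7238 of them with 1 gene. Groups and replicate numbers came from sample titles. The comparison of groups used limma 3.58.1 under R 4.3.3 (lmFit, eBayes with a trend, two-sided, Benjamini-Hochberg, threshold 0.05; 2 residual and 2.59 prior degrees of freedom). The steps were run on simulated data with 200 changed probe sets and the same noise for every probe set. That run does not show what the fit could detect in these arrays. Members and lists were chosen with earlier results of these data known. The rule for named genes took the members, list members by their smaller within-number difference, and the 6 nearest profiles. Outside this rule, the genes added from symbols, the nearest gene of each single member and the neighbour of HTB2 were also named. Alternatives were other scalings, pseudocounts, filters and variance models, the replicate block and leaving out each array. Same-numbered arrays were not paired: their deviations from the group means correlated at -0.818 across probe sets. Plots were made with matplotlib 3.10.9 (Python 3.11.15).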

Additional observations from a re-analysis of the deposited data

How the results depend on the processing

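Every alternative run gave 0 calls over all probe sets, including the replicate block, in which the replicate number was a term (0 of 13604, and 0 at an unadjusted p under 0.05) and that with the replicate numbers crossed as a block, a choice made after the data were seen (0 past the threshold, 554 at an unadjusted p under 0.05). In the other alternatives without a left-out array, between 1 and 282 probe sets had an unadjusted p under 0.05 in limma, the highest without a filter, where dim probe sets enter. Of the 4 H2B genes, 0 passed under each alternative in which they were counted. Their labelled log2 differences kept their sign in all 36 values from alternatives that use every array, and 7 of 16 had the other sign with 1 array left out. These ranged from -0.419 to 0.045 for HTB1, from -0.788 to 1.303 for HTB2, from -0.242 to 0.343 for HTB4 and from -2.083 to 1.594 for HTB11. Within the replicate numbers, 0 of 32 member values changed sign with another scaling or pseudocount, and 2 moved by over 1.5 times, both of HTB1 in number 1, at 0.094 with quantile normalization and 0.328 with median centring. The dim signals of HTB11 depend on the pseudocount, and its difference in number 1 was -3.05 with the 25th percentile and -3.92 with 1. The alternatives bear only on values from these 4 arrays, and near-identical family members could share probes, which was not tested.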
